A study of Mus musculus with 12 samples.

Results

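The genes described here make, regulate or move cholesterol and fatty acids. They are 30 genes chosen by symbol: 5 that control the SREBP transcription factors, 16 enzymes of cholesterol synthesis, 6 enzymes of fatty acid synthesis and 3 genes of sterol transport and efflux. All 30 were among the 24340 rows of the deposited table, and all 30 were above 0 in every retina. RNA had been sequenced from both retinas of 6 mice aged 12 to 16 weeks, all of the p16-3MR strain, whose transgene puts a viral thymidine kinase under the p16Ink4a regulatory region, so that ganciclovir (GCV) kills cells that express it. Intraocular pressure (IOP) was raised to 85 to 90 mm Hg in 1 eye of each mouse for 60 min, and the fellow eye served as control. GCV was given daily at 25 mg/kg to mice 1, 2 and 5, mice 3, 4 and 6 were sham-treated, and the retinas were taken on day 3. This gave 4 groups of 3 retinas. No group lacked the transgene, so an effect of GCV itself and an effect of losing p16Ink4a-expressing cells cannot be told apart here.

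Cells sense cholesterol in the endoplasmic reticulum. When sterols are scarce, the escort protein SCAP carries the SREBP precursors to the Golgi, where they are cut into active transcription factors that switch on the genes of cholesterol and fatty acid synthesis, Insig1 among them. When sterols are plentiful, INSIG proteins hold SCAP back, and oxysterols activate the LXR receptors, which raise the cholesterol exporters ABCA1 and ABCG1. The retina both makes cholesterol and takes it up from the blood, and its photoreceptors renew lipid-rich membranes throughout life.

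The values came with no unit and were taken as FPKM (fragments per kilobase of exon, scaled to library size), a level that allows for gene length. The sums of the 12 libraries ran from 394758 to 529896 FPKM, and the depth estimated from the steps of low values ran from 6750000 to 8800000 fragments in 11 libraries and was 3950000 in the IOP-treated retina of mouse 6. That library had 14844 genes above 0 against 16044 to 16593 in the others. The retina's identity was plain from its rod markers, 8 genes led by rhodopsin that summed to 30180 to 55780 FPKM, with none called. Marker lists of other cells moved with IOP elevation. Ganglion cell markers summed to 1002 to 2008 FPKM in control and 266 to 1089 FPKM in IOP-treated retinas, with 8 of 10 called lower in the averaged comparison of IOP-treated with control retinas, and 2 of 10 with the eyes of a mouse paired. Microglia markers went from 62.7 to 94.8 FPKM up to 219 to 459 FPKM (6 of 8 called higher), and infiltrating leukocyte markers from 8.58 to 46.8 FPKM up to 166 to 2502 FPKM (6 of 8 called higher). Lens markers were at 5.85 to 97.7 FPKM in 5 control retinas and at 5576 FPKM in the control retina of mouse 1, and in IOP-treated retinas at 68.5 FPKM in mouse 3 and 2236 to 4550 FPKM in the others (6 of 10 called higher). No marker of these 4 lists was at 0 in all 3 retinas of any IOP-treated group, while Ly6c2 and Cd3e were at 0 in the control retinas with GCV. No marker of pigment epithelium, oligodendrocytes, blood or endothelium was called. In bulk retina, fewer cells of a type and less RNA per cell cannot be told apart.

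In the control eyes the levels of the 30 genes differed widely. Scd2, a stearoyl-CoA desaturase, was highest with a median of 85.9 FPKM over the 6 control eyes (range 72.0 to 102.7), followed by Acly, the ATP citrate lyase that makes cytosolic acetyl-CoA, at 74.3 FPKM (71.1 to 77.2), whose range overlapped that of Scd2. Hmgcs1 at 52.5 FPKM, Pmvk at 44.3 FPKM and Scap at 42.9 FPKM came next, with overlapping ranges. The other desaturase, Scd1, was at 3.87 FPKM (3.33 to 5.31), below every value of Scd2. Idi1, the isopentenyl diphosphate isomerase, was lowest at 1.95 FPKM (1.54 to 2.36).

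In the averaged comparison 24 of the 30 genes were lower after IOP elevation by sign alone, as were 8906 of all 18509 genes. Averaged over mice with and without GCV, 18 of the 30 genes differed between IOP-treated and control retinas at an adjusted p under 0.05 and are called changed here, against 12.2% of all 18509 genes tested. The 18509 include genes above 0 in only 1 library, and 13411 genes reached 1 FPKM in 3 libraries. All 30 were above 0 in every retina, so the share of all genes is not one of equally expressed genes. Of the 18, 15 were lower, where 5.44% of all genes were called lower, and 3 were higher, where 6.76% of all genes were. The 15 were Insig1, Srebf2, the cholesterol enzymes Hmgcs1, Acat2, Idi1, Fdps, Fdft1, Sqle, Lss, Cyp51 and Nsdhl, the fatty acid enzymes Fasn, Elovl6 and Scd2, and the sterol carrier Stard4. The 3 that rose were Pmvk, Ebp and Abca1. The median log2 difference of the 30 genes was -0.41, beside 0.01 over all genes. In 12 of the 30 genes every IOP-treated retina was below every control retina, a pattern found in 2.44% of all genes, and in 3 genes every IOP-treated retina was above every control retina, found in 5.47% of all genes. With each mouse's eyes entered as a pair, 12 of the 18 calls remained. Lss, Cyp51, Ebp, Fasn, Srebf2 and Stard4 were then at adjusted p of 0.0518, 0.0694, 0.0536, 0.052, 0.067 and 0.0517. The 12.2% of all genes holds for the unpaired fit, and no share of all genes is given for the paired one. Leaving out 1 library at a time left between 9 and 19 genes called, with 9 when the control retina of mouse 4 was left out and 11 without the control retina of mouse 2.

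**Figure D1:**
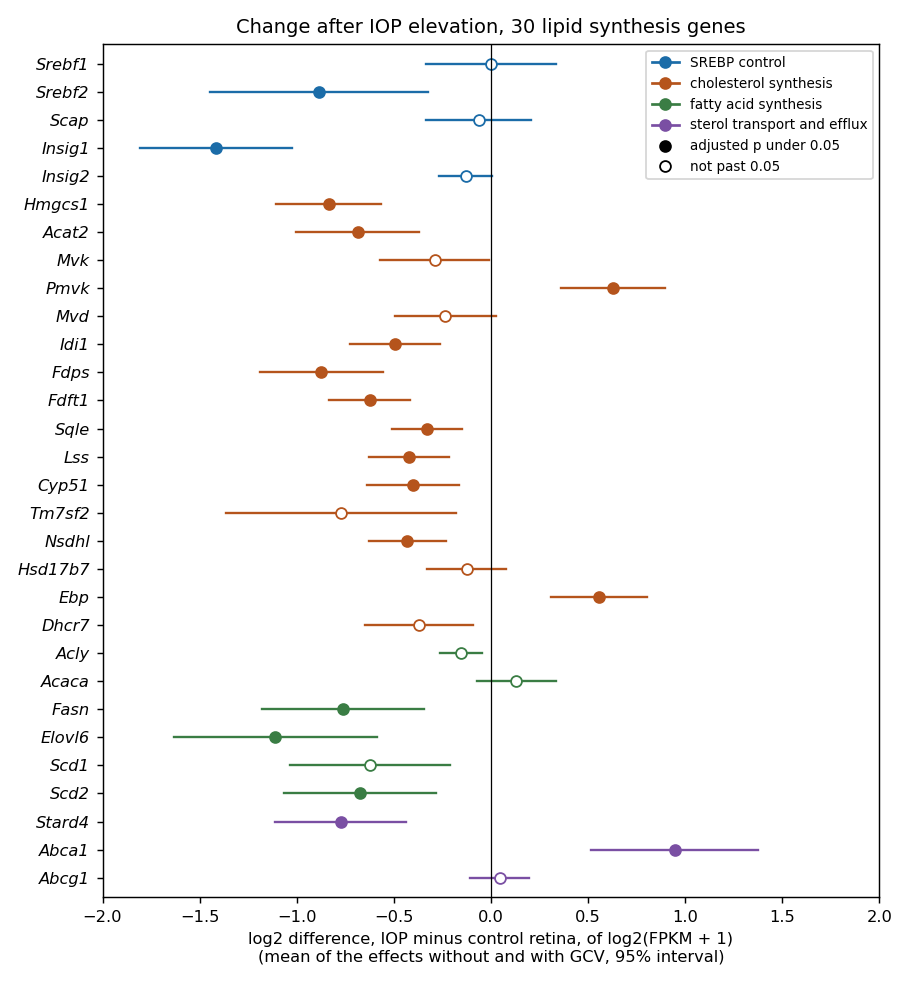
Log2 difference between IOP-treated and control retinas for the 30 genes, on the log2(FPKM + 1) scale and averaged over mice with and without GCV. Points are estimates from 12 retinas, lines are 95% intervals, and filled points passed an adjusted p of 0.05. Insig1 was lowest at -1.42 and Abca1 highest at 0.95, and 24 of the 30 points lie left of 0.

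The promoters of 4 of these genes are shown because these genes had the smallest p in the averaged comparison among the 23 members with a promoter window, 2 that fell (Insig1 and Hmgcs1) and 2 that rose (Pmvk and Ebp). Each runs 5′ to 3′ along the gene's strand over 300 bases, 250 before and 50 after the transcription start, as RefSeq gives it on GRCm38.p6. Capitals mark exact matches on either strand to 4 motifs: TCACNCCAC, a sterol regulatory element; CACGTG, an E-box; CCAAT, bound by NF-Y; and GGGCGG, bound by Sp1. The windows lie at chr5:28071162-28071461 on the plus strand (Insig1), chr13:119690101-119690400 on the plus strand (Hmgcs1), chr3:89454291-89454590 on the plus strand (Pmvk, the first of its 2 windows) and chrX:8193463-8193762 on the minus strand (Ebp).
Insig1: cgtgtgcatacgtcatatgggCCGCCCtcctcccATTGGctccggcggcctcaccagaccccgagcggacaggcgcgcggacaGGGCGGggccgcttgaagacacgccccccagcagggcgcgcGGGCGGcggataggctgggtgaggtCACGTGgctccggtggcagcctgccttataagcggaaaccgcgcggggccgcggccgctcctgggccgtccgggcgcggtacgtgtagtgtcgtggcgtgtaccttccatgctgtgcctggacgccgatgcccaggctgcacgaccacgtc
Hmgcs1: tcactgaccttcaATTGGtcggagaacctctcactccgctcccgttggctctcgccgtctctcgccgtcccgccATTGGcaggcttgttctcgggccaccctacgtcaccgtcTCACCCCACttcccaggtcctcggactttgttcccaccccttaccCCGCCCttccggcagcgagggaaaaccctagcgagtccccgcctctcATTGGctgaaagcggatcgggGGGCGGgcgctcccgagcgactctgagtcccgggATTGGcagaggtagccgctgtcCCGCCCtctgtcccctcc
Pmvk: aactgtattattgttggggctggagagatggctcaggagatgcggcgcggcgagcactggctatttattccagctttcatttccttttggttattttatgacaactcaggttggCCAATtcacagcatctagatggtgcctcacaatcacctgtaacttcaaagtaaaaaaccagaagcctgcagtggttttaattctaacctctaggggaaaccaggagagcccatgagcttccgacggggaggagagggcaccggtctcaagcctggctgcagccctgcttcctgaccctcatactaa
Ebp: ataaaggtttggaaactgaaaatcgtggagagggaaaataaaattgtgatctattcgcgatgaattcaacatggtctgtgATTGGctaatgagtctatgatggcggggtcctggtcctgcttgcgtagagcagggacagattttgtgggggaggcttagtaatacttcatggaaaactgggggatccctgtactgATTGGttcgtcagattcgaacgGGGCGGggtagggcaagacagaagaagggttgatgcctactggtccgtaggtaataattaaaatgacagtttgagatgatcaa

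Hmgcs1 held 1 match to the sterol element, from -137 to -129 relative to the start, with 4 CCAAT and 3 GGGCGG matches. Insig1 held an E-box from -101 to -96, 1 CCAAT and 3 GGGCGG matches, and no exact sterol element. Ebp held 2 CCAAT and 1 GGGCGG match, and Pmvk a single CCAAT. No matches to different motifs overlapped in these 4 windows. Taking the first window of each gene, CCAAT was found in 17 of 23 members (73.9%), against 38.6% of 9839 genes that averaged 1 FPKM or more. GGGCGG was in 17 of 23 members (73.9%) against 65% of those genes, CACGTG in 4 of 23 (17.4%) against 10.2%, and TCACNCCAC in 1 of 23 (4.35%) against 1.06%. A match describes letters in the window and does not show binding.

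Of the 5 control genes of the pathway, 2 were called, both lower (40%, against 12.2% of all genes called and 5.44% called lower). Pairing the eyes ended the Srebf2 call (adjusted p = 0.067). Insig1 had the largest difference of all 30 genes. Without GCV Insig1 was at 22.96, 26.8 and 25.2 FPKM in control and 7.16, 14.9 and 7.73 FPKM in IOP-treated retinas. Its levels with GCV were 27.1, 30.3 and 24.9 FPKM in control and 12.2, 7.49 and 7.62 FPKM in IOP-treated retinas. Values are in the order of mice 3, 4 and 6 and of mice 1, 2 and 5 throughout. All 6 IOP-treated retinas were below all 6 control retinas, with the smallest gap in mouse 4 (log2 difference -1.42, standard error 0.18, adjusted p = 0.00129 averaged over both treatments, called in 12 of 12 fits that left out 1 library). INSIG1 retains SCAP in the endoplasmic reticulum, and its own gene is an SREBP target. Insig2, which encodes the other INSIG protein, was lower in each IOP-treated eye by a small amount and was not called. Insig2 stood at 16.3, 15.01 and 14.5 FPKM in control and 13.6, 14.7 and 13.5 FPKM in IOP-treated retinas without GCV. In mice given GCV Insig2 was at 16.97, 17.99 and 18.1 FPKM in control and 15.1, 17.02 and 15.8 FPKM in IOP-treated retinas. The difference was -0.13 on the log2 scale (95% interval -0.27 to 0.01, adjusted p = 0.18).

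Srebf2 encodes the SREBP that mainly drives cholesterol genes. Without GCV Srebf2 was at 23.7, 25.6 and 26.8 FPKM in control and 13.5, 21.3 and 6.64 FPKM in IOP-treated retinas. The values with GCV were 24.04, 36.8 and 25.8 FPKM in control and 21.4, 17.2 and 10.5 FPKM in IOP-treated retinas. Every IOP-treated retina was below every control retina, but the size ran from a small gap in mice 1 and 4 to the lowest value in mouse 6 (log2 difference -0.89, standard error 0.25, adjusted p = 0.0473). The call was kept in 2 of 12 fits that left out 1 library, with log2 differences of -1.07 to -0.68. Srebf1, whose products mainly drive fatty acid genes, was not called. Srebf1 stood at 27.7, 29.7 and 28.3 FPKM in control and 31.5, 25.98 and 16.1 FPKM in IOP-treated retinas without GCV. With GCV Srebf1 was at 28.98, 27.4 and 22.97 FPKM in control and 36.3, 34.1 and 25.9 FPKM in IOP-treated retinas. Its IOP-treated eye was the higher one in mouse 3 and in the 3 mice with GCV and the lower one in mice 4 and 6. The averaged log2 difference was 0.00 (95% interval -0.33 to 0.33), with a sign that changed under 10 of the alternatives. Scap, the SREBP escort, was at 48.5, 42.8 and 47.3 FPKM in control and 50.8, 37.7 and 28.1 FPKM in IOP-treated retinas without GCV. With GCV Scap was at 42.7, 43.04 and 40.5 FPKM in control and 46.8, 51.6 and 43.03 FPKM in IOP-treated retinas. Its difference was -0.06 (95% interval -0.33 to 0.21, adjusted p = 0.766), and its lowest value came from the IOP-treated retina of mouse 6, the library of least depth, without which it was 0.04.

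**Figure D2:**
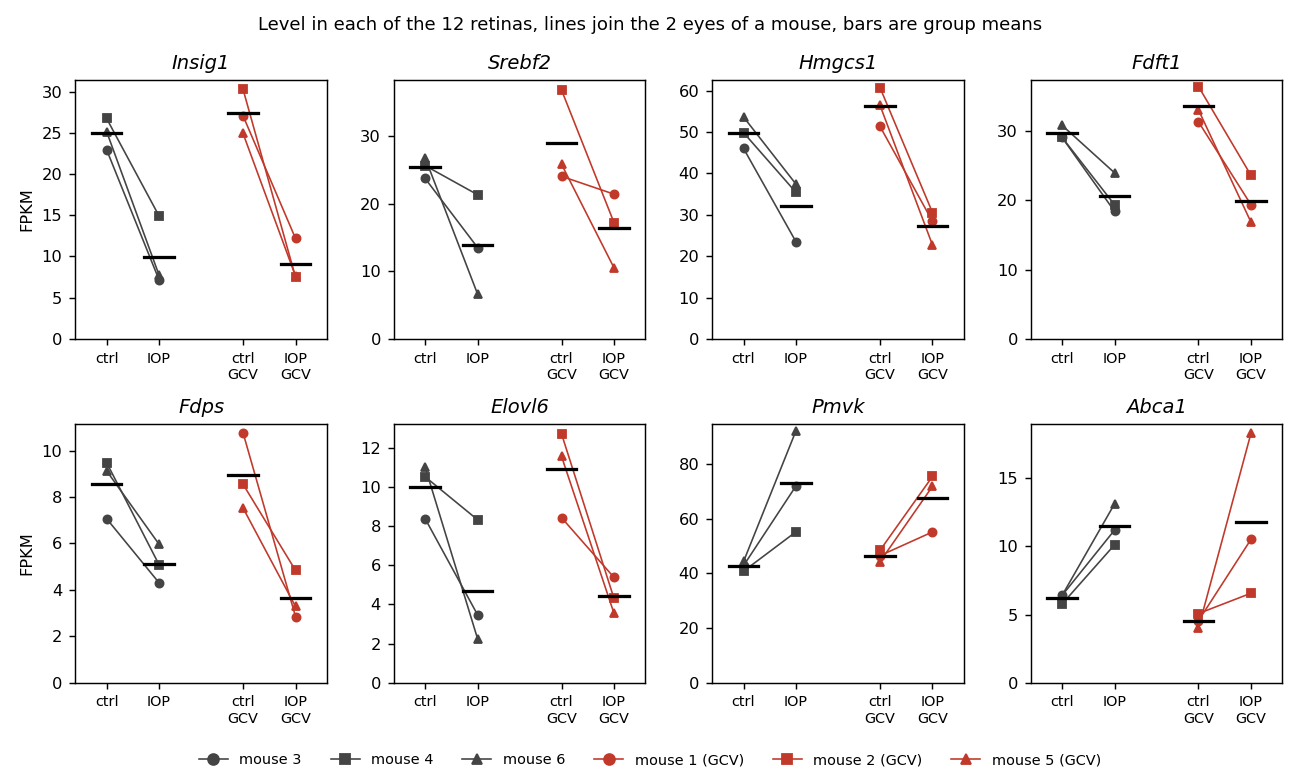
FPKM of 8 of the genes in each retina. Lines join the control and IOP-treated eye of a mouse, grey without GCV and red with GCV, and black bars are means of 3 retinas. Insig1, Srebf2, Hmgcs1, Fdft1, Fdps and Elovl6 are lower in each of the 6 IOP-treated eyes than in the fellow eye, and Pmvk and Abca1 are higher in each.

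Enzymes at the entry to the pathway were lower after IOP elevation. Hmgcs1, the cytosolic HMG-CoA synthase, had the smallest adjusted p of the 16 enzymes. Without GCV Hmgcs1 was at 46.02, 49.8 and 53.6 FPKM in control and 23.4, 35.4 and 37.4 FPKM in IOP-treated retinas. Its levels with GCV were 51.4, 60.7 and 56.5 FPKM in control and 28.4, 30.5 and 22.7 FPKM in IOP-treated retinas. Every IOP-treated retina was below every control retina (log2 difference -0.84, standard error 0.12, adjusted p = 0.00279, called in 12 of 12 fits without 1 library). Acat2, the cytosolic acetoacetyl-CoA thiolase that precedes it, went the same way in each mouse. Acat2 stood at 7.08, 8.33 and 8.16 FPKM in control and 4.29, 6.04 and 5.21 FPKM in IOP-treated retinas without GCV. In mice given GCV Acat2 was at 10.7, 10.8 and 7.93 FPKM in control and 5.27, 6.46 and 3.52 FPKM in IOP-treated retinas. All IOP-treated values were below all control values (log2 difference -0.69, standard error 0.14, adjusted p = 0.0171).

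Of the mevalonate kinases 1 was called. Pmvk, phosphomevalonate kinase, rose. Without GCV Pmvk was at 42.9, 40.8 and 44.4 FPKM in control and 72.03, 55.2 and 92.2 FPKM in IOP-treated retinas. The values with GCV were 46.5, 48.4 and 44.3 FPKM in control and 55.2, 75.5 and 71.9 FPKM in IOP-treated retinas. All 6 IOP-treated retinas were above all 6 control retinas (log2 difference 0.63, standard error 0.12, adjusted p = 0.0122), and without the highest one, that of mouse 6, the log2 difference was 0.54. Mvk, mevalonate kinase, acts directly before it in the pathway. Mvk stood at 13.6, 11.8 and 14.9 FPKM in control and 11.6, 9.30 and 8.57 FPKM in IOP-treated retinas without GCV. With GCV Mvk was at 13.2, 14.8 and 13.4 FPKM in control and 10.3, 16.7 and 10.8 FPKM in IOP-treated retinas. Mvk was lower in 5 of 6 IOP-treated eyes than in the fellow eye, higher in mouse 2, and was not called (log2 difference -0.29, standard error 0.13, adjusted p = 0.154). Mvd, the mevalonate decarboxylase that follows Pmvk, was at 6.30, 9.29 and 7.18 FPKM in control and 6.47, 5.44 and 5.76 FPKM in IOP-treated retinas without GCV. With GCV Mvd was at 7.96, 9.20 and 6.30 FPKM in control and 6.85, 7.10 and 6.47 FPKM in IOP-treated retinas. The groups overlapped and Mvd was not called (log2 difference -0.23, standard error 0.12, adjusted p = 0.209).

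The isoprenoid steps from isopentenyl diphosphate to squalene fell together. Idi1 was the least abundant of the 30 genes. Without GCV Idi1 was at 1.91, 1.54 and 1.74 FPKM in control and 1.49, 1.01 and 0.739 FPKM in IOP-treated retinas. Its levels with GCV were 2.35, 2.07 and 1.99 FPKM in control and 1.09, 1.13 and 1.05 FPKM in IOP-treated retinas. Each IOP-treated retina was below each control retina (log2 difference -0.49, standard error 0.10, adjusted p = 0.0172), although values near 1 FPKM rest on few fragments and the pseudocount of 1 makes the log2 difference of such a gene smaller. Fdps, makes farnesyl diphosphate, the branch point to sterols and other isoprenoids. Fdps stood at 7.07, 9.49 and 9.13 FPKM in control and 4.30, 5.08 and 5.96 FPKM in IOP-treated retinas without GCV. In mice given GCV Fdps was at 10.8, 8.55 and 7.53 FPKM in control and 2.85, 4.84 and 3.29 FPKM in IOP-treated retinas. It did not overlap between the groups either (log2 difference -0.87, standard error 0.14, adjusted p = 0.00545). Fdft1, squalene synthase, commits the pathway to sterols. Without GCV Fdft1 was at 29.1, 29.1 and 30.8 FPKM in control and 18.4, 19.4 and 23.96 FPKM in IOP-treated retinas. The values with GCV were 31.3, 36.4 and 33.03 FPKM in control and 19.4, 23.6 and 16.8 FPKM in IOP-treated retinas. Its highest IOP-treated value, 23.96 FPKM in mouse 6, was under its lowest control value, 29.1 FPKM (log2 difference -0.62, standard error 0.09, adjusted p = 0.00339). Hmgcs1, Fdps, Fdft1 and Idi1 were each called in 12 of 12 fits that left out 1 library.

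After squalene, 4 enzymes of sterol formation were called lower and 1 higher. With the eyes paired, Lss, Cyp51 and Ebp lost their calls (adjusted p = 0.0518, 0.0694 and 0.0536). Sqle, squalene epoxidase, was at 20.4, 21.6 and 22.5 FPKM in control and 15.9, 16.1 and 20.3 FPKM in IOP-treated retinas without GCV and at 20.9, 23.8 and 19.6 FPKM in control and 16.8, 17.3 and 15.1 FPKM in IOP-treated retinas with GCV. It was lower in every IOP-treated eye than in the fellow eye, with 1 of the 6 IOP-treated values inside the control range (log2 difference -0.33, standard error 0.08, adjusted p = 0.0319, called in 5 of 12 fits without 1 library). Lss, lanosterol synthase, was at 9.70, 9.94 and 8.59 FPKM in control and 6.71, 7.32 and 5.48 FPKM in IOP-treated retinas without GCV and at 8.20, 9.66 and 9.26 FPKM in control and 7.30, 6.96 and 6.13 FPKM in IOP-treated retinas with GCV. The Lss groups did not overlap (log2 difference -0.42, standard error 0.09, adjusted p = 0.0219). Cyp51, the lanosterol demethylase, was at 18.1, 17.8 and 17.7 FPKM in control and 12.4, 12.8 and 19.6 FPKM in IOP-treated retinas without GCV and at 19.01, 19.2 and 19.6 FPKM in control and 13.6, 14.1 and 11.6 FPKM in IOP-treated retinas with GCV. Cyp51 was lower in 5 mice but in mouse 6 the IOP-treated eye was the higher one (log2 difference -0.40, standard error 0.11, adjusted p = 0.039, called in 3 of 12 fits without 1 library). With that retina left out the log2 difference was -0.50.

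Nsdhl, which removes methyl groups from sterols, was at 12.04, 13.6 and 13.2 FPKM in control and 9.76, 8.35 and 8.86 FPKM in IOP-treated retinas without GCV and at 11.2, 15.6 and 12.8 FPKM in control and 9.26, 10.3 and 9.83 FPKM in IOP-treated retinas with GCV. Every IOP-treated retina was below every control retina (log2 difference -0.43, standard error 0.09, adjusted p = 0.0162). Ebp, the sterol isomerase that acts late in the pathway, rose. Ebp stood at 16.2, 15.7 and 15.7 FPKM in control and 27.3, 20.6 and 22.4 FPKM in IOP-treated retinas without GCV. With GCV Ebp was at 18.1, 15.6 and 13.6 FPKM in control and 20.1, 23.1 and 29.96 FPKM in IOP-treated retinas. Here all IOP-treated values were above all control values (log2 difference 0.56, standard error 0.11, adjusted p = 0.014). The rise was called in 12 of 12 fits that left out 1 library, but not with the eyes paired (adjusted p = 0.0536). Dhcr7, which makes cholesterol from 7-dehydrocholesterol, was lower in each of the 6 IOP-treated eyes than in the fellow eye but was not called. Without GCV Dhcr7 was at 14.5, 13.6 and 14.01 FPKM in control and 11.03, 9.40 and 12.99 FPKM in IOP-treated retinas. Its levels with GCV were 14.2, 13.9 and 12.2 FPKM in control and 10.4, 12.5 and 7.13 FPKM in IOP-treated retinas. Its log2 difference was -0.37 (standard error 0.13, adjusted p = 0.0783). Tm7sf2, a sterol reductase, was also lower in each pair. Tm7sf2 stood at 3.92, 5.43 and 4.98 FPKM in control and 3.45, 3.48 and 0.567 FPKM in IOP-treated retinas without GCV. In mice given GCV Tm7sf2 was at 3.62, 7.22 and 4.55 FPKM in control and 2.90, 2.76 and 2.52 FPKM in IOP-treated retinas. The groups did not overlap, and the lowest value was that of mouse 6. Its log2 difference was -0.77 (standard error 0.27, adjusted p = 0.0809), and -0.52 with that retina left out. Hsd17b7, a sterol ketoreductase, ranged from 3.13 to 3.59 FPKM in control and 2.54 to 3.32 FPKM in IOP-treated retinas and was not called (log2 difference -0.13, 95% interval -0.33 to 0.08). The summed level of the 16 cholesterol enzymes overlapped between IOP-treated (212 to 273 FPKM) and control retinas (252 to 299 FPKM), and Pmvk was the second most abundant of them in control eyes.

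In fatty acid synthesis 3 of 6 enzymes were called, all lower (50%, against 12.2% of all genes called and 5.44% called lower). Pairing the eyes ended the Fasn call (adjusted p = 0.052). Elovl6, which extends palmitate to stearate, had the second largest fall of the 30 genes. Without GCV Elovl6 was at 8.38, 10.5 and 11.01 FPKM in control and 3.47, 8.32 and 2.25 FPKM in IOP-treated retinas. The values with GCV were 8.42, 12.7 and 11.6 FPKM in control and 5.37, 4.30 and 3.54 FPKM in IOP-treated retinas. The groups did not overlap, with mouse 4 closest to the controls (log2 difference -1.11, standard error 0.24, adjusted p = 0.0181). Scd2 was at 72.7, 89.6 and 71.98 FPKM in control and 42.6, 76.8 and 35.05 FPKM in IOP-treated retinas without GCV and at 82.2, 103 and 89.7 FPKM in control and 68.8, 52.7 and 49.8 FPKM in IOP-treated retinas with GCV. The IOP-treated retina of mouse 4 lay within the control range and the others below it (log2 difference -0.67, standard error 0.18, adjusted p = 0.0376, called in 2 of 12 fits without 1 library). Scd1 moved in 5 of 6 mice the same way and in mouse 3 the other way, and was not called. Scd1 stood at 3.33, 3.78 and 5.08 FPKM in control and 4.56, 2.57 and 1.93 FPKM in IOP-treated retinas without GCV. With GCV Scd1 was at 3.55, 5.31 and 3.96 FPKM in control and 1.99, 1.31 and 2.34 FPKM in IOP-treated retinas. Its log2 difference was -0.62 (standard error 0.19, adjusted p = 0.0533).

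Fasn, the fatty acid synthase, was at 10.8, 15.04 and 14.6 FPKM in control and 7.36, 11.6 and 5.07 FPKM in IOP-treated retinas without GCV and at 12.3, 18.2 and 13.1 FPKM in control and 9.73, 7.75 and 6.39 FPKM in IOP-treated retinas with GCV. It was lower in all 6 IOP-treated eyes than in the fellow eyes, while the IOP-treated retina of mouse 4 overlapped the controls (log2 difference -0.76, standard error 0.19, adjusted p = 0.031, called in 6 of 12 fits without 1 library). Without GCV Acly was at 71.7, 71.1 and 74.3 FPKM in control and 60.7, 63.4 and 66.9 FPKM in IOP-treated retinas. Its levels with GCV were 74.4, 77.2 and 75.3 FPKM in control and 71.3, 68.2 and 68.4 FPKM in IOP-treated retinas. Acly, which supplies acetyl-CoA to the pathway, was lower in each of the 6 pairs by a small amount and was not called (log2 difference -0.15, standard error 0.05, adjusted p = 0.0632). Acaca, the acetyl-CoA carboxylase of fatty acid synthesis, ranged from 4.84 to 5.81 FPKM in control and 5.11 to 6.64 FPKM in IOP-treated retinas (log2 difference 0.13, 95% interval -0.07 to 0.33).

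Transport genes moved in opposite directions. Abca1, which exports cholesterol and phospholipid to apolipoproteins, was higher in the IOP-treated eye of all 6 mice. Abca1 stood at 6.40, 5.77 and 6.40 FPKM in control and 11.2, 10.1 and 13.1 FPKM in IOP-treated retinas without GCV. In mice given GCV Abca1 was at 4.55, 5.08 and 4.01 FPKM in control and 10.5, 6.57 and 18.3 FPKM in IOP-treated retinas. All IOP-treated values were above all control values (log2 difference 0.95, standard error 0.19, adjusted p = 0.0153). Without the highest one, that of mouse 5, the log2 difference was 0.77. Abcg1, another cholesterol exporter, lay between 20.9 and 24.8 FPKM in control and 21.7 and 26.8 FPKM in IOP-treated retinas and was not called (log2 difference 0.04, 95% interval -0.11 to 0.20). Stard4, a soluble sterol carrier, fell. Without GCV Stard4 was at 4.65, 5.64 and 4.84 FPKM in control and 2.37, 3.08 and 3.01 FPKM in IOP-treated retinas. The values with GCV were 3.95, 5.34 and 4.34 FPKM in control and 2.69, 1.13 and 2.38 FPKM in IOP-treated retinas. Every IOP-treated retina was below every control retina (log2 difference -0.77, standard error 0.15, adjusted p = 0.0134).

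**Figure D3:**
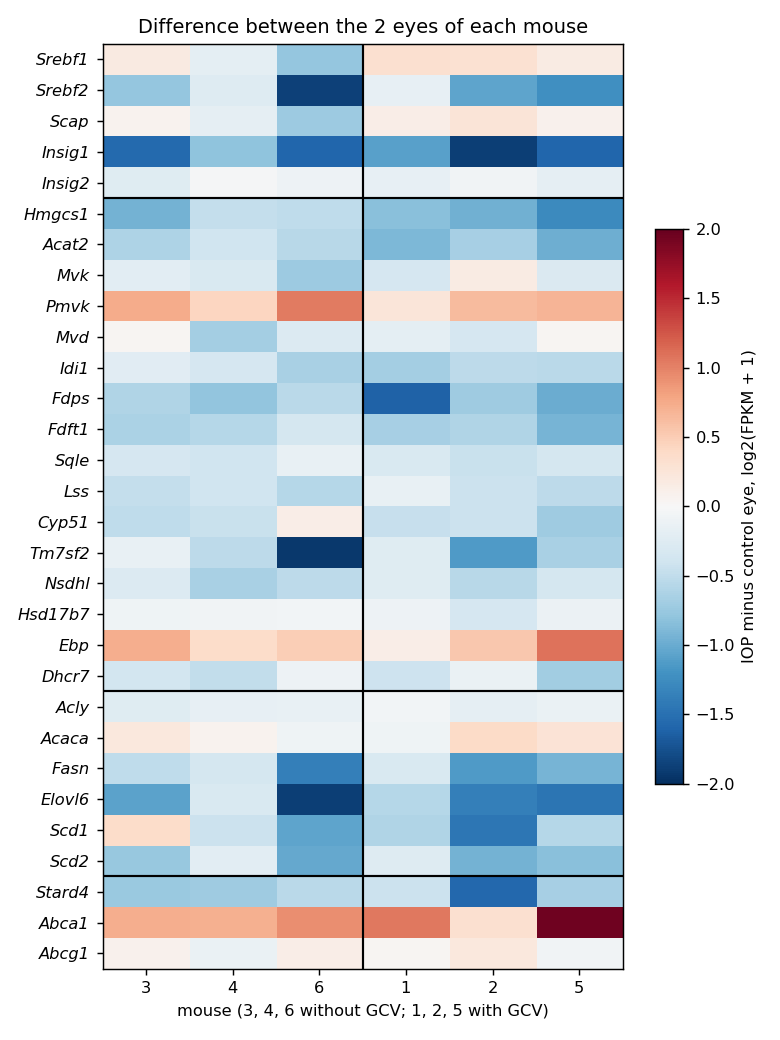
Difference in log2(FPKM + 1) between the IOP-treated and the control eye of each mouse (columns, 3 without and 3 with GCV) for the 30 genes (rows, grouped by role, lines between the groups). Blue is lower and red higher in the IOP-treated eye, and between 21 and 26 genes are lower in each mouse.

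Within single mice, 21 to 26 of the 30 genes were lower in the IOP-treated eye, where 44.1% to 48.6% of all genes were. The share of all genes counts genes with equal values in both eyes as not lower, and none of the 30 was equal. In mouse 6, 8994 of all genes were lower and 7717 higher, and in mouse 2, 8166 were lower and 8742 higher. In each mouse but mouse 6 more of all genes were higher than lower. For the 16 cholesterol enzymes the count was 13 or 14 in every mouse, with a median log2 difference between -0.31 and -0.54. The mice differed in their markers. In mouse 4, ganglion cell markers went from 1136 FPKM in the control to 1089 FPKM in the IOP-treated eye, leukocyte markers from 8.58 to 322 FPKM and lens markers from 30.3 to 3571 FPKM. In that mouse 26 of the 30 genes were lower, with a median log2 difference of -0.34 and -0.80 for Insig1. In mouse 3, ganglion cell markers went from 1002 to 266 FPKM, leukocyte markers from 11.7 to 665 FPKM and lens markers from 5.85 to 68.5 FPKM. The Insig1 difference there was -1.55. In mouse 1, ganglion cell markers went from 1252 to 831 FPKM, leukocyte markers from 11.2 to 576 FPKM and lens markers from 5576 to 4550 FPKM, and the Insig1 difference was -1.09. In mouse 2 the Insig1 difference was -1.88, with ganglion cell markers from 2008 to 646 FPKM, leukocyte markers from 11.2 to 166 FPKM and lens markers from 53.0 to 2309 FPKM. In mouse 5 it was -1.59, with ganglion cell markers from 1372 to 389.9 FPKM, leukocyte markers from 36.6 to 2502 FPKM and lens markers from 97.7 to 3542 FPKM. In mouse 6 it was -1.58, with ganglion cell markers from 1253 to 460.0 FPKM, leukocyte markers from 46.8 to 744 FPKM and lens markers from 26.4 to 2236 FPKM. The Insig1 difference was smallest in mice 4 and 1, and so were those of Srebf2, Fasn, Elovl6 and Scd2. Not all genes had this order, as Fdps differed most in mouse 1 (-1.61) and Fdft1 least in mouse 6 (-0.35). In the averaged comparison the median log2 difference was -0.41 for the 30 genes. It was -1.23 for ganglion cell, -0.20 for rod, 1.19 for microglia, 2.96 for infiltrating leukocyte and -0.40 for Mueller glia markers. Of the 10 Mueller glia markers, 8 were lower. Of these markers Glul and Rlbp1 were called lower and Apoe higher, and none was at 0. With the eyes paired Glul kept its call and Rlbp1 and Apoe did not (adjusted p = 0.0547 and 0.058). The summed levels of the 10 markers overlapped, at 1997 to 2342 FPKM in control and 1804 to 2919 FPKM in IOP-treated retinas. Apoe, an apolipoprotein that carries cholesterol between cells, was at 498 to 856 FPKM in control and 810.2 to 1710.0 FPKM in IOP-treated retinas. Glul, the glutamine synthetase of these cells, fell from 815 to 1119 FPKM to 184 to 602 FPKM. The part of these marker changes in the differences of the lipid genes was not tested.

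Of 20 further genes of sterol synthesis and uptake, 5 were called lower and 1 higher in the averaged comparison (30% called, against 12.2% of all genes), with a median log2 difference of 0.01. Msmo1, the methylsterol oxidase that acts with Nsdhl, was lower in every IOP-treated retina than in every control retina (log2 difference -0.53, standard error 0.09, adjusted p = 0.00519). Npc2, a lysosomal cholesterol carrier, was the gene that rose, from 13.0 to 16.1 FPKM in control to 19.6 to 52.2 FPKM in IOP-treated retinas (log2 difference 1.05, standard error 0.19, adjusted p = 0.00883).

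Of 22 further genes of fatty acid synthesis and desaturation tested, 2 were called, both lower. That share, 9.09%, was below the 12.2% of all genes, and the list's median log2 difference was -0.07. Hsd17b12, a ketoreductase of fatty acid elongation, ranged from 58.9 to 75.5 FPKM in control and 38.6 to 56.8 FPKM in IOP-treated retinas (log2 difference -0.45, standard error 0.08, adjusted p = 0.00757). Fads1, a front-end desaturase of polyunsaturated fatty acids, was the other (log2 difference -0.43, standard error 0.12, adjusted p = 0.0435), but not once the eyes were paired (adjusted p = 0.0606). Among 14 genes of the LXR receptors and lipid efflux, 3 were called (21.4%), all higher, and none of them was called with the eyes paired. The list's median log2 difference was 0.41, and Apoe was among the 3 (log2 difference 0.96, standard error 0.23, adjusted p = 0.0303, paired 0.058). Lpcat3, a phospholipid acyltransferase and LXR target, rose from 4.24 to 5.60 FPKM to 6.06 to 11.6 FPKM (log2 difference 0.61, standard error 0.15, adjusted p = 0.0304, paired 0.0725), and Apoc1, an apolipoprotein that macrophages also make, went from 2.19 to 6.47 FPKM to 4.49 to 17.8 FPKM (log2 difference 1.12, standard error 0.28, adjusted p = 0.0328, paired 0.0662). Of 7 oxysterol enzymes 1 was called (14.3%), Ch25h, cholesterol 25-hydroxylase (log2 difference 1.74, standard error 0.36, adjusted p = 0.0155). It was at 0 to 1.45 FPKM in control and 1.35 to 6.84 FPKM in IOP-treated retinas, with 2 IOP-treated values below the highest control.

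In mice without GCV taken alone, 1 of the 30 genes was called, Insig1 (log2 difference -1.31, standard error 0.25, adjusted p = 0.0318), against 1.65% of all genes (0.232% lower and 1.42% higher). At an unadjusted p under 0.05 there were 20 of 30, against 18.9% of all genes. Pairing the eyes ended this call (adjusted p = 0.0725). Between IOP-treated and control retinas 25 genes were lower and 5 higher in mean, and in 16 genes all 3 IOP-treated retinas were below all 3 controls, against 8.81% of all genes. In 3 genes they were all above, against 11.7%. The spread between IOP-treated retinas was the larger one, with a median SD of 0.34 on the log2 scale against 0.12 in controls. With GCV it was 0.20 in IOP-treated and 0.14 in control retinas. The fit pools 1 spread over the 4 groups, so the numbers of calls without and with GCV do not reflect these unequal spreads. The IOP-treated retina of mouse 4 stood closest to the controls for Insig1, Srebf2, Elovl6, Fasn and Scd2, and 9 of the 30 genes were called when it was left out. None was called when the IOP-treated retina of mouse 3 or any 1 of the 6 control retinas was left out, the controls with GCV entering through the shared spread.

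With GCV, 4 of the 30 genes were called, all lower in IOP-treated than in control retinas, against 1.8% of all genes called and 0.157% called lower. They were Insig1 (log2 difference -1.52, standard error 0.25, adjusted p = 0.0148), Hmgcs1 (log2 difference -1.03, standard error 0.17, adjusted p = 0.0157), Fdft1 (log2 difference -0.73, standard error 0.13, adjusted p = 0.0224) and Fdps (log2 difference -1.10, standard error 0.20, adjusted p = 0.0234). In the paired fit Insig1 and Hmgcs1 kept their calls and Fdft1 and Fdps did not (adjusted p = 0.0503 and 0.082). At an unadjusted p under 0.05 there were again 20 of 30, against 19.2% of all genes. All 3 IOP-treated retinas were below the 3 controls in 19 genes, against 15.3% of all genes, and above them in 3, against 14.5%. No gene of the 30 was called without the control retina of mouse 1, of mouse 2 or of mouse 5, or without the IOP-treated eye of mouse 5. There were 2 calls without the IOP-treated eye of mouse 1, and 8 without that of mouse 4, which enters through the shared spread.

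The response to IOP elevation was compared directly between mice with and without GCV. None of the 30 genes passed limma's test of this interaction at an adjusted p of 0.05, nor did any of all 18509 genes (0%), and 0 of 30 had an unadjusted p under 0.05, against 1.93% of all genes. The estimates lay between -0.50 for Scd1 and 0.52 for Srebf1, the latter with a 95% interval of -0.14 to 1.19. For Insig1 the interaction was -0.21 (95% interval -0.99 to 0.58), for Hmgcs1 -0.38 (-0.92 to 0.16), for Pmvk -0.21 (-0.75 to 0.32) and for Abca1 0.32 (-0.54 to 1.18). The median half-width of these unadjusted 95% intervals over the 30 genes was 0.54 on the log2 scale.

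**Figure D4:**
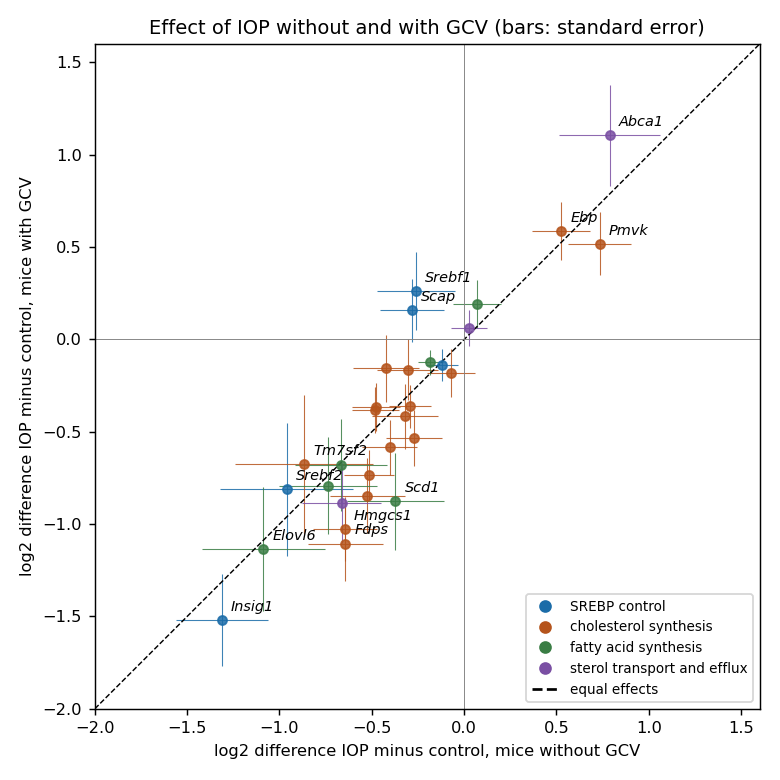
Log2 difference between IOP-treated and control retinas for each of the 30 genes without GCV (x axis) and with GCV (y axis), with standard errors from the spread pooled over the 4 groups and a dashed line of equal effects. Insig1 lies lowest on both axes and Abca1 highest on both, and Srebf1 and Scap are negative without and positive with GCV, with neither called.

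GCV was also compared with no GCV in retinas of the same kind, which come from different mice. In IOP-treated retinas none of the 30 genes was called by limma (0% of all genes) and 0 of 30 had an unadjusted p under 0.05, against 4.18% of all genes, with log2 differences between -0.45 (Scd1) and 0.41 (Srebf1). In 2 genes, Insig2 and Acly, all 3 IOP-treated retinas with GCV were above all 3 without, against 2.68% of all genes, and in 0 genes they were below, against 2.07%. In control retinas none was called either (0% of all genes), and 1 gene had an unadjusted p under 0.05, against 1.59% of all genes. That gene was Insig2, which stood 0.20 higher with GCV on the log2 scale (95% interval 0.01 to 0.39, adjusted p = 1). In 5 of the 30 genes all 3 control retinas with GCV were above all 3 without, against 6.01% of all genes, and in Abca1 they were below, against 5.14%.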

How the data were processed

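Total RNA of 12 retinas was made into stranded mRNA libraries and sequenced as paired reads. The authors deposited 1 table of 24340 gene symbols and 12 columns with no unit given, and its values were taken as FPKM from their range and sums. HOMER counting over RefSeq exons is named in the study's methods, and TopHat2, Bowtie2, Cufflinks, Cuffdiff and mm10 in the submitters' processing notes without roles. Scaling between libraries is not given in the sources used here, and values of less deeply sequenced libraries carry more counting error.

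For each gene above 0 in at least 1 library (18509), log2(FPKM + 1) was fitted by limma 3.58.1 (R 4.3.3) with 1 mean per group, a variance trend, and Benjamini-Hochberg adjustment over all of them at 0.05. Differences of low genes are understated on this scale. The averaged comparison is the mean of the effects of IOP without and with GCV. Depth was estimated from 2243 genes, where 82.7% to 87.2% of values of up to 4 fragments fell within 0.15 of a whole number and chance gives 30%. The table holds no counts, so no counting intervals are given.

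Replicate numbers in the labels are mice, so they pair the eyes; deviations of same-numbered retinas from their group means correlated between -0.12 and 0.39 across 12910 genes. The fit with the mouse as a block is given where it changes a call. Values in every retina are given for members called in any comparison, the 5 SREBP control genes and the 6 further members with the smallest p. Called genes of the further lists are named except 4 of the sterol list, which are not reported here. Members and lists were chosen with earlier results of these data known. The alternatives were another pseudocount (0.1), a filter of 1 FPKM in 3 libraries, the block, only the groups compared, median-ratio or quantile scaling, no trend, an adjusted p of 0.1 and each library left out. Promoter searches and figures used Python 3.11.15 with pandas 2.3.3 and matplotlib 3.10.9.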

Additional observations from a re-analysis of the deposited data

How the results depend on the processing

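With the replicate block (the eyes of each mouse paired), 12 of the 30 genes were called in the averaged comparison, 0 without GCV and 2 with GCV, beside 18, 1 and 4 without it, and no call was gained. With only the groups compared in the fit, 0 were called without GCV and 2 with GCV. Quantile normalization gave 3 without GCV, a filter of 1 FPKM in 3 libraries gave 7 with GCV, and an adjusted p under 0.1 gave 4 without and 9 with GCV. Leaving out 1 library at a time gave 0 to 9 genes without GCV, 0 to 8 with GCV, 9 to 19 averaged, and 0 throughout for the interaction and for both comparisons of GCV with no GCV. Without GCV the count was 3 when the IOP-treated eye of mouse 5 was left out, and 9 when that of mouse 4 was. The cause was not tested. Of 419 values of called genes under these alternatives, 330 stayed called, 89 were no longer called and 0 changed sign. Under median-ratio and quantile scaling the median log2 difference of all genes stayed within 0.02 of 0. The unit of the table was inferred, and low values rest on few fragments.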
